A study of Mus musculus with 8 samples.

Results

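The Erbb receptors and the neuregulins were examined as 7 genes chosen by name, 4 receptors (Egfr, Erbb2, Erbb3 and Erbb4) and 3 ligands (Nrg1, Nrg2 and Nrg3), among 21951 protein-coding mouse genes. For each gene every H3K27ac peak over the gene body or within 20 kb on either side of it was taken, here called its window. The windows held 16 of the 28924 peaks listed for proliferating and 25 of the 27965 peaks listed for differentiating Oli-neu cells. H3K27ac, acetylation of lysine 27 of histone H3, marks active promoters and enhancers and was mapped by chromatin immunoprecipitation and sequencing. Oli-neu is a mouse line that the labels describe as oligodendrocyte progenitor cells of embryonic origin and C57BL/6 strain, and it was immortalized with an activated form of Erbb2, the neu oncogene, so both states carry this construct, which was not analysed here. Proliferating cells were kept with T3 at 340 ng/ml, L-thyroxine at 400 ng/ml, bFGF at 10 ng/ml and Pdgf-BB at 1 ng/ml. Whether T3 and L-thyroxine were also given to differentiating cells is not recorded. Differentiating cells spent 1 day per the labels (the culture methods of the study give a longer time) without growth factors and with 1 μM of the erb inhibitor PD174265. Withdrawal of the factors, block of the receptors studied here and differentiation itself therefore cannot be told apart. Each state has 1 library, so no test between the states was run and the values stand side by side. The 6 ATAC-seq samples of the study were not analysed here.

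Receptors of this family are tyrosine kinases of the cell surface that work in pairs. Egfr binds ligands of the EGF group, Erbb3 and Erbb4 bind neuregulins, Erbb2 has no known soluble ligand and serves as the preferred partner of the others, and Erbb3 signals through its partners because its own kinase is weak. In glia, neuregulin signals from axons act on survival and growth of oligodendrocyte precursors and Schwann cells, and the downstream Ras, MAP kinase and PI3 kinase routes switch on feedback inhibitors such as the Sprouty proteins.

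Read counts are not given in the lists, and the depth of single peaks is therefore unknown. Each peak has a fold enrichment over the background of the peak caller and a −log10 q, and a percentile below is the percent of peaks of the same list with a lower value. The median fold enrichment was 3.33 in the proliferating and 3.13 in the differentiating list, and the median −log10 q was 1.93 and 1.89. Promoter peaks were also looked up for cell type markers, beginning with the oligodendrocyte lineage. Sox10, Olig1 and Olig2 had a promoter peak in both states, whereas Nkx2-2, Pdgfra, Cspg4, Mbp and Cnp had none in either. Their windows nevertheless held peaks in both states: 2 and 2, 4 and 4, 4 and 6, 2 and 4, and 4 and 4, in this order. Of 4 astrocyte, 4 neuron, 4 microglia and 3 endothelial markers, 1, 0, 0 and 0 had a promoter peak in proliferating cells (Slc1a3) and 0, 1, 0 and 0 in differentiating cells (Syt1). The Slc1a3 peak ranked at percentile 1.56 by −log10 q. It did not pass a q of at most 0.05, the cutoff stated in the methods of the study, whereas the Syt1 peak did. Among all protein-coding genes 23.7% and 27.7% had a promoter peak. With so few markers these counts do not establish the identity of the cells.

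In proliferating cells 5 of the 7 genes had a peak in the window (Egfr, Erbb2, Erbb3, Erbb4 and Nrg3), and in differentiating cells 6 did (all but Egfr). Among all protein-coding genes this share was 62.7% in proliferating and 62.7% in differentiating cells. The only Nrg3 peak of differentiating cells had a −log10 q of 1.28. It did not pass a q of at most 0.05, the cutoff stated in the methods of the study. Under that cutoff 16 proliferating and 21 differentiating window peaks remained, with none for Nrg3 in differentiating cells. Over the gene body itself 4 members had a peak in proliferating cells, where 41.9% of protein-coding genes had one, and 5 members in differentiating cells, where 43.5% had one. Erbb2 was the member with peaks nearby and none over its body in both states. The 4 receptors together had 14 and 18 window peaks, or 9.66 and 12.4 per Mb of window, in proliferating and differentiating cells. The 3 neuregulins had 2 and 7, or 0.809 and 2.83 per Mb. Over the whole genome the lists held 10.6 and 10.3 peaks per Mb. The families also lie on chromosomes of unlike density. Those of the receptors held 16.5 to 23.0 peaks per Mb in proliferating and 15.6 to 22.9 in differentiating cells. Those of the neuregulins held 4.11 to 6.41 and 3.90 to 6.07. Whether the families differ beyond this was not tested.

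**Figure D1:**
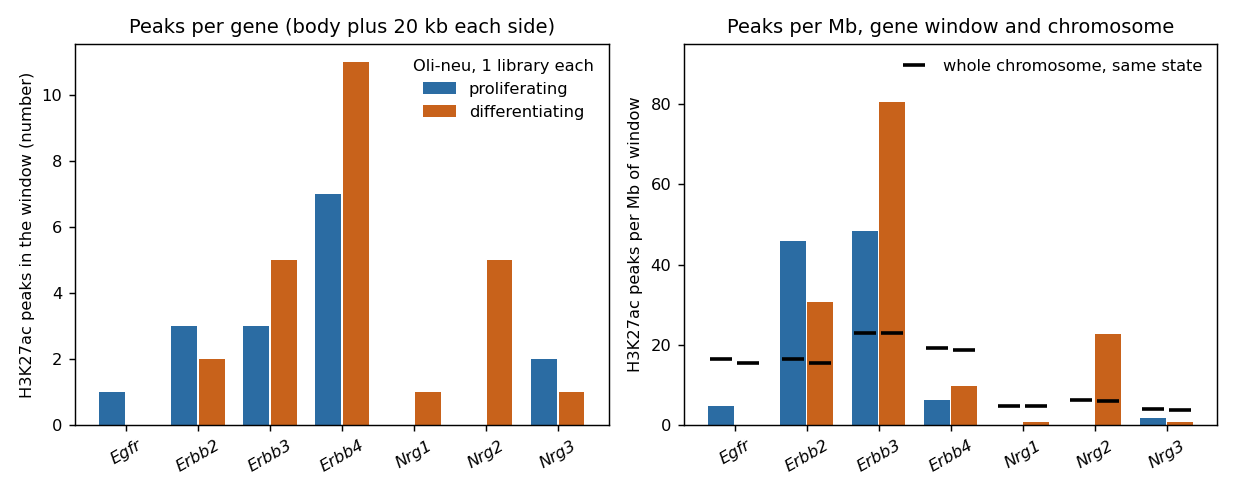
Number of H3K27ac peaks in the window of each gene (left) and peaks per Mb of window (right) in proliferating and differentiating Oli-neu cells, 1 library each; black dashes give peaks per Mb of the gene's whole chromosome. Erbb4 held the most peaks, 7 and 11, and the windows of Erbb2 and Erbb3 lay above the density of their chromosomes in both states.

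Of the 16 window peaks of proliferating cells 8 shared bases with the differentiating list, or 50% (95% exact Clopper-Pearson interval 24.7% to 75.3%, counting error only), where 35.2% of the peaks in windows of any protein-coding gene did. Of the 25 in differentiating cells 7 had a counterpart, or 28.0% (12.1% to 49.4%), where 35.0% did. The intervals include the shares over all protein-coding genes. Every pair lay in the window of a receptor gene: 1 for Erbb2, 3 for Erbb3 and 3 regions for Erbb4. The Erbb4 region next to the start site was split into 2 peaks in proliferating cells. The Erbb2 pair lay at the promoter of its neighbor Pgap3, so Erbb2 had no shared peak at its own promoter or body. Of the Erbb3 pairs only that in intron 1 lay in the gene, and the others were at the promoters of Pa2g4 and Zc3h10. No neuregulin peak had a counterpart in the other state. In a bulk sample a peak carried by fewer cells and a lower signal per cell cannot be told apart. Most of the peaks were of middling rank. The median percentile by −log10 q was 53.4 in proliferating and 46.9 in differentiating cells, and 2 of 16 and 1 of 25 peaks were in the upper 10% of their list. The smallest width a list contains, 263 bp and 279 bp, was found for 3 of 16 and 8 of 25 peaks, against 22.9% and 17.5% of all peaks.

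**Figure D2:**
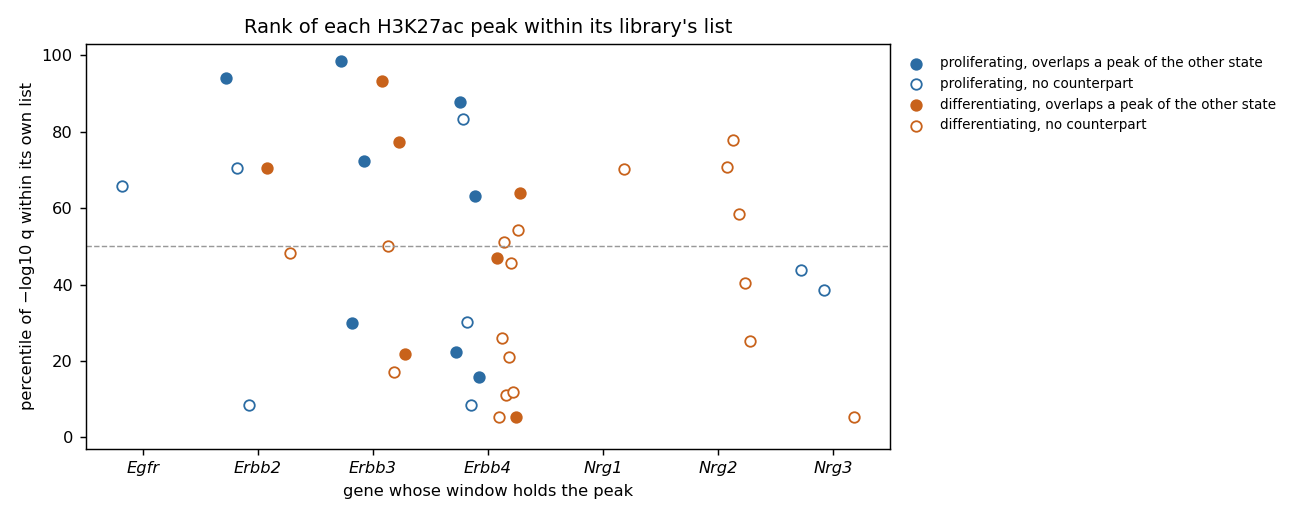
Percentile of −log10 q of each window peak within its own list (y axis, 0 to 100) by gene; filled points overlap a peak of the other state and open points do not, and the dashed line marks 50. The highest points are the Erbb3 intron 1 peaks, at 98.6 and 93.3, and the proliferating peak at the Pgap3 promoter in the Erbb2 window, at 94.0.

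For Erbb2, Erbb3 and Erbb4 a region near the start site is shown by the 300 bp around the middle of a proliferating peak, since the account of the receptors turns on these regions. For Erbb2 and Erbb3 it is the peak nearest to the TSS, and for Erbb4 it is the second nearest, since the nearest lies over exon 1. Sequences are from the RefSeq GRCm38.p6 assembly, the same build as the peak lists, on the strand of the gene and 5′ to 3′. Capitals mark CpG dinucleotides. The Erbb2 stretch (chr11:98409547-98409846, plus strand) lies between Pgap3 and Erbb2, the Erbb3 stretch (chr10:128587290-128587589, minus strand) in intron 1 of Erbb3 and the Erbb4 stretch (chr1:69105845-69106144, minus strand) in intron 1 of Erbb4, and none of them overlaps an annotated exon. The Erbb4 stretch also lies in an intron of Gm16076, a noncoding gene inside Erbb4.
Erbb2 upstream: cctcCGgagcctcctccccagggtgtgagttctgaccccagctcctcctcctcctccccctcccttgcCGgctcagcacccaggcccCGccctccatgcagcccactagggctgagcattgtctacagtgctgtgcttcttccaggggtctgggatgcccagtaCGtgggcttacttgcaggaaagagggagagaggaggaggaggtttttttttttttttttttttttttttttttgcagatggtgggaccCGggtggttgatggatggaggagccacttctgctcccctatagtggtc
Erbb3 intron 1: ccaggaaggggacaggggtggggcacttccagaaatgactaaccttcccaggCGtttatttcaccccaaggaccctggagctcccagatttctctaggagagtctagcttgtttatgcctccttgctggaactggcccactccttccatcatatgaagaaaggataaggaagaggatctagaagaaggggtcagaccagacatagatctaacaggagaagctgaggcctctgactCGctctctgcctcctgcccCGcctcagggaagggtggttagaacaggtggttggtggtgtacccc
Erbb4 intron 1: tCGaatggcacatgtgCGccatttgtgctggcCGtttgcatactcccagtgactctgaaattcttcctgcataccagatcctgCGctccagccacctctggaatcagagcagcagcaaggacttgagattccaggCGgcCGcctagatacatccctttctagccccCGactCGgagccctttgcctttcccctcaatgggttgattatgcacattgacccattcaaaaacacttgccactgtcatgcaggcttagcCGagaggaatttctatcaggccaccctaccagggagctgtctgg
The Erbb4 stretch had 9 CpGs, the Erbb2 stretch 5 and the Erbb3 stretch 3, at a GC content of 53.7%, 57.0% and 54.0%. Marked repeats made up 34.7% of the Erbb2 stretch, which includes a long run of T, and 7.33% and 0% of the Erbb3 and Erbb4 stretches. On both strands 5 short motifs were searched: ACAAAG and ACAATG (cores bound by Sox factors), CAGCTG and CAGATG (E-boxes) and TGANTCA (the AP-1 core). The Erbb2 stretch held 1 ACAATG, read on the opposite strand, and 1 CAGATG, which did not overlap. The Erbb3 and Erbb4 stretches held none of the letters searched. Of all 300 bp stretches around the middle of a proliferating peak 23.1% held ACAAAG, 14.8% ACAATG, 15.5% CAGCTG, 21.3% CAGATG and 8.10% TGANTCA. The middle of a broad peak need not be its highest point, which the lists do not give.

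Erbb2 (ENSMUSG00000062312.5, chromosome 11, 98412470 to 98437716 on the plus strand), the receptor whose activated form is the neu oncogene, had no peak over its 25.2 kb body in either list. None of its 27 coding exons was touched, and no coding base lay under a peak, so no exon-restricted peaks were seen on this gene. In proliferating cells 3 peaks lay in the flanks. The nearest, 1503 bp wide (98408946 to 98410448), reached from −3524 bp to −2022 bp relative to the TSS, with a fold enrichment of 3.71 and a −log10 q of 2.43 at percentile 70.7. It is the only window peak of Erbb2 that reached into its promoter region, here the 3000 bp before and the 100 bp after the TSS, and it had no counterpart in differentiating cells. The Erbb2 sequence printed above is its middle, and marked repeats made up 25.1% of the whole peak. The lists do not tell reads of the mouse gene from reads of the neu construct.

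Both states shared a peak farther upstream, 11635 bp and 11565 bp before the Erbb2 TSS. It covered the start of Pgap3, a neighbor on the other strand that encodes an enzyme of GPI anchor remodeling. Its fold enrichment was 4.49 in proliferating and 3.15 in differentiating cells, and its percentile by −log10 q was 94.0 and 70.4. Marked repeats made up 0% of it in both lists, and its ratio of observed to expected CpG was 0.792 and 0.767, at percentiles 90.6 and 87.4. The remaining Erbb2 peaks lay beyond the 3′ end and were of minimum width. That of proliferating cells, in the body of Grb7, an adaptor gene that is a member of the pathway list below, lay 41069 bp after the TSS at percentile 8.49, and that of differentiating cells, past the end of Grb7, 44816 bp after it at percentile 48.4. From the start of a shorter noncoding Erbb2 transcript these peaks were 26459 bp and 30206 bp away, and no peak lay over the start of any of the 3 transcripts.

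**Figure D3:**
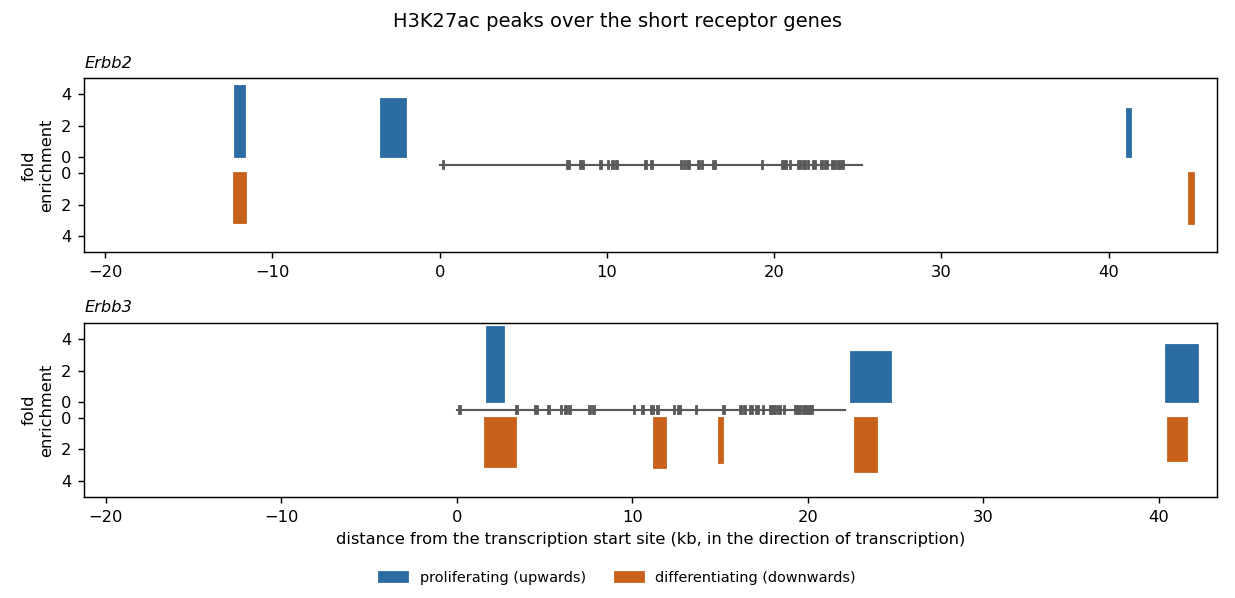
H3K27ac peaks over Erbb2 and Erbb3 by distance from the TSS in kb; bars give the span of each peak and, as height, the authors' fold enrichment (upwards for proliferating, downwards for differentiating cells), and the gray line with boxes is the gene with its coding exons. No bar lies over the 25.2 kb of Erbb2, while both states have a bar 1.6 to 3.4 kb after the start of Erbb3.

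Erbb3 (ENSMUSG00000018166.8, chromosome 10, 128567523 to 128589652 on the minus strand), a neuregulin receptor that pairs with Erbb2, held the strongest peak of all members. In proliferating cells this peak (128586961 to 128587919) lay 1733 bp to 2691 bp after the TSS in intron 1, with a fold enrichment of 4.73, a −log10 q of 7.59 and rank 406 of 28924 by −log10 q (percentile 98.6). In differentiating cells the corresponding peak (128586288 to 128588054) lay 1598 bp to 3364 bp after the TSS, with a fold enrichment of 3.08, a −log10 q of 4.69 and rank 1870 of 27965 (percentile 93.3). The proliferating peak was contained whole in the differentiating one, which was 1767 bp against 959 bp wide and at its far end touched 4 bp of coding exon 2. By fold enrichment the percentiles were 97.0 and 45.4, and why they differ from those by −log10 q was not tested. Neither peak reached the promoter region of the single annotated transcript, so Erbb3 was counted as without a promoter peak in both states.

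Within the body of Erbb3 the differentiating list had a further pair of peaks that the proliferating list did not. One, 692 bp wide and 11235 bp to 11926 bp after the TSS, covered 157 coding bp of exons 12 and 13, at percentile 50.1. The other, of minimum width and 14923 bp to 15201 bp after the TSS, touched 24 coding bp of exon 17, at percentile 17.1. Together with the intron 1 peak the differentiating list thus touched 4 of 28 coding exons of Erbb3 and 185 of 4017 coding bp, and most of each of these peaks was intron. Marked repeats made up 44.9% of the peak at exons 12 and 13, at percentile 88.1 of its list.

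Past the 3′ end of Erbb3 both states had the same 2 regions, both in promoter regions of neighbors. The nearer lay at the promoter of Pa2g4, which encodes a protein known to bind Erbb3, 22483 bp and 22705 bp after the Erbb3 TSS. It ranked at percentile 29.9 in proliferating and 77.2 in differentiating cells, with a fold enrichment of 3.18 and 3.45. The farther lay at Rpl41, a ribosomal protein gene, and Zc3h10, 40433 bp and 40508 bp after the TSS, with a fold enrichment of 3.61 and 2.71 and percentiles of 72.3 and 21.7. Its proliferating peak reached the body and the promoter region of both genes. Its differentiating peak reached the promoter region of Zc3h10 and the body of Rpl41 alone. The order of the states was opposite at these neighboring promoters. All 3 shared regions of the Erbb3 window had over 50% of each peak inside the other. The window of Erbb3 held 48.3 and 80.5 peaks per Mb, against 23.0 and 22.9 on chromosome 10, whereas that of Erbb2 held 46.0 and 30.7 against 16.5 and 15.6 on chromosome 11. In the Erbb2 window 1 of 3 and 1 of 2 peaks, and in the Erbb3 window 2 of 3 and 2 of 5, reached a promoter region of another protein-coding gene.

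Erbb4 (ENSMUSG00000062209.15, chromosome 1, 68032186 to 69108059 on the minus strand), a neuregulin receptor with a working kinase, spans 1076 kb and had 7 peaks in proliferating and 11 in differentiating cells, all over its body. Its start was the only one among the 7 genes with a promoter peak in both states. In proliferating cells a peak of 514 bp covered the TSS, from 104 bp before to 409 bp after it, with a fold enrichment of 2.87 at percentile 22.4. A second peak of 958 bp followed 1586 bp to 2543 bp after the TSS with a fold enrichment of 3.83 at percentile 87.7. In differentiating cells a single peak of 2670 bp, wider than 99.3% of its list, ran from 93 bp to 2762 bp after the TSS of the gene, with a fold enrichment of 2.89 at percentile 46.9. It covered the second proliferating peak whole and 317 bp, or 61.7%, of the first, and it did not reach the TSS of the gene itself. The differentiating peak covered a second annotated start of coding transcripts a short way downstream, as did the first proliferating peak. In both states 82 coding bp of exon 1 lay under a peak, the only coding bases of Erbb4 that did.

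The other Erbb4 peaks were intronic and mostly of lower rank. In proliferating cells they lay in intron 1 at 47.7 kb and 149 kb, in intron 2 at 516 kb, in intron 4 at 713 kb and in intron 25 at 1061 kb from the TSS. Their fold enrichments ranged from 3.09 to 4.04, and the peak at 47.7 kb stood highest, at percentile 83.3. In differentiating cells 6 further peaks lay in intron 1, from 10.7 kb to 312 kb, and the rest in introns 3, 4, 16 and 25. These 10 ranked between percentiles 5.24 and 63.9. The regions in introns 4 and 25 were found in both states, at percentiles 63.1 and 5.24 for intron 4 and 15.8 and 63.9 for intron 25. The differentiating peak in intron 4 had a −log10 q of 1.28 and did not pass a q of at most 0.05. The differentiating peaks at 10.7 kb and 146 kb, with a −log10 q of 1.28 and 1.29, did not pass it either. The intron 1 peaks at 149 kb and 146 kb of the 2 states lay close together without a shared base. The GC content of these intronic peaks ranged from 29.3% to 39.0% in proliferating and from 29.1% to 47.7% in differentiating cells, against a median of 47.1% and 47.4% over the lists, and the highest was that of the peak at 10.7 kb. The peaks at the start had 66.0%, 54.3% and 58.3%. Of the intron 16 peak 98.2% was marked as repeat.

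**Figure D4:**
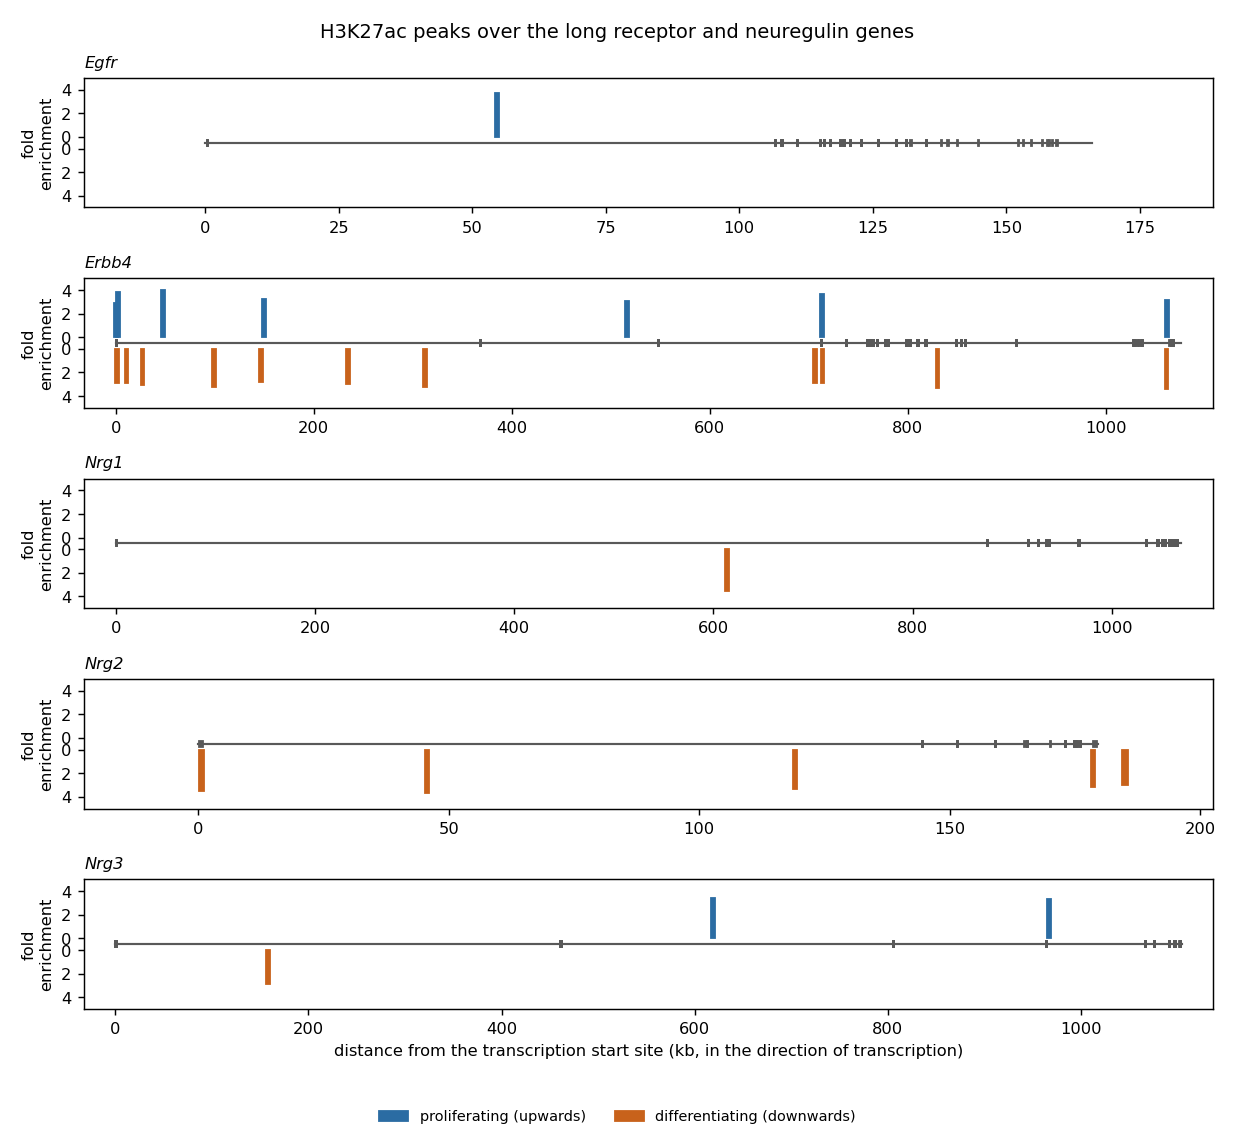
H3K27ac peaks over Egfr, Erbb4, Nrg1, Nrg2 and Nrg3 by distance from the TSS in kb, drawn as bars whose height is the authors' fold enrichment (upwards for proliferating, downwards for differentiating cells) over the gene line with its coding exons; bars are widened to be visible. Erbb4 has 7 and 11 bars, Egfr has 1 and 0, Nrg1 0 and 1, Nrg2 0 and 5 and Nrg3 2 and 1.

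Egfr (ENSMUSG00000020122.16, chromosome 11, 16752203 to 16918158 on the plus strand), the receptor for EGF, had a single peak in proliferating cells and none in differentiating cells. The peak (16806368 to 16807251) was 884 bp wide and lay in intron 1, 54165 bp to 55048 bp after the TSS, with a fold enrichment of 3.69, a −log10 q of 2.28 and percentile 65.9. Its nearest annotated start, that of a noncoding Egfr transcript, was 54138 bp away. In differentiating cells the peak nearest to the Egfr TSS lay 199418 bp downstream, past the gene. The window held 4.86 and 0 peaks per Mb, below the 16.5 and 15.6 of chromosome 11.

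Among the ligands Nrg1 (ENSMUSG00000062991.7, chromosome 8, 31814551 to 32884029 on the minus strand), the axonal neuregulin best known for its role in Schwann cell myelination, had no peak in proliferating and 1 in differentiating cells. The differentiating peak (32269915 to 32270946) was 1032 bp wide, with a fold enrichment of 3.55, a −log10 q of 2.47 and percentile 70.3. It lay in intron 1 of the longest form, 613083 bp after its TSS, and its near edge was at −260424 bp relative to the closest of the downstream starts. None of the 15 distinct starts of the 18 annotated Nrg1 transcripts had a peak over it in either state. The nearest peak to the TSS of the longest form in proliferating cells lay 20372 bp upstream of it, just outside the window.

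Nrg3 (ENSMUSG00000041014.17, chromosome 14, 38368952 to 39473088 on the minus strand), a neuregulin that binds Erbb4, had 2 peaks in proliferating cells and 1 in differentiating cells, all in introns. Those of proliferating cells lay in introns 2 and 4, 618367 bp and 966691 bp after the TSS, with fold enrichments of 3.41 and 3.35 at percentiles 43.8 and 38.7. That of differentiating cells was of minimum width, lay in intron 1, 157797 bp after the TSS, and ranked at percentile 5.24 with a fold enrichment of 2.89. Marked repeats made up 61.6% of it, and it did not pass a q of at most 0.05. These 3 peaks did not overlap each other.

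The long genes were set beside other genes of their length. Among 59 protein-coding genes of at least 1 Mb, a group formed after the values were seen, the window held a median of 5 peaks (0 to 57) in proliferating and 7 (0 to 60) in differentiating cells. More peaks than in 33 and 44 of these genes were found at Erbb4. At Nrg1, 0 and 4 of the 59 had fewer, and at Nrg3, 7 and 4 had fewer, while 6 and 4 had no peak at all. Erbb4 lies on chromosome 1, which held 19.2 and 18.7 peaks per Mb, Nrg1 on chromosome 8 with 4.87 and 4.85 and Nrg3 on chromosome 14 with 4.11 and 3.90. Relative to the chromosome the density was 0.327 and 0.528 at Erbb4, 0 and 0.186 at Nrg1 and 0.426 and 0.224 at Nrg3. All 3 long genes were thus below the density of their own chromosomes in both states.

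Nrg2 (ENSMUSG00000060275.13, chromosome 18, 36017652 to 36197380 on the minus strand), a neuregulin that binds Erbb3 and Erbb4, had no window peak in proliferating cells and 5 in differentiating cells. The first (36196166 to 36197292) lay 88 bp to 1214 bp after the TSS, over exon 1, with a fold enrichment of 3.48, a −log10 q of 2.49 and percentile 70.9. It covered 733 coding bp and the start of a noncoding Nrg2 transcript, and it reached the last bases of the promoter region. The peaks 45.5 kb and 119 kb after the TSS lay in intron 1, were of minimum width and ranked at percentiles 77.8 and 58.5. The fourth, 178486 bp to 178912 bp after the TSS, covered 215 coding bp of exon 10, the last exon, at percentile 40.4. The fifth lay past the 3′ end inside Psd2, 184368 bp after the TSS, at percentile 25.3. The nearest proliferating peak was 83224 bp upstream of the Nrg2 TSS. The window held 0 and 22.8 peaks per Mb, against 6.41 and 6.07 on its chromosome.

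Across the members 2 of 7 genes had a promoter peak in proliferating cells (Erbb2 and Erbb4), where 23.7% of protein-coding genes had one, and 2 of 7 in differentiating cells (Erbb4 and Nrg2), where 27.7% did. In either state 3 of 7 did, against 33.8%. These shares, 28.6% in each state with an interval from 3.67% to 71.0%, are near the background. With a promoter region of 1000 bp to either side of the TSS the Erbb2 peak no longer counted, and with a −log10 q of at least 5 no member had a promoter peak. A coding exon of the member was touched by 1 of 16 window peaks of proliferating cells, or 6.25% (0.158% to 30.2%). In differentiating cells 6 of 25 did so, or 24.0% (9.36% to 45.1%). Of the peaks in windows of any protein-coding gene 24.0% and 26.3% touched a coding exon of any such gene. The 6 were 3 at Erbb3, 1 at Erbb4 and 2 at Nrg2. Both intervals include the shares over all genes, but the measures are unlike. A member peak over the coding exon of a neighbor did not count, whereas it would count in the share over all genes. The remaining 10 and 14 peaks over gene bodies lay in introns alone.

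Of 36 other genes of the pathway 21 had a promoter peak in proliferating cells, 19 in differentiating cells, 16 in both and 24 in either state, which is 58.3% and 52.8% against the 23.7% and 27.7% of all protein-coding genes given above. The list was chosen by name with earlier results of these data known, and this difference was not tested. The other ligands had few: of 8, Tgfa had a promoter peak in both states, at percentiles 60.4 and 63.0, and Egf, Areg, Ereg, Hbegf, Btc, Epgn and Nrg4 had none. Of 4 proteases that cut ligands or receptors, Adam17 had a promoter peak in both states (41.7 and 85.7), Adam10 in proliferating cells (60.9) and Bace1 and Adam19 in neither. Of 8 adaptors and scaffolds, Grb2 (85.6 and 83.1), Sos1 (2.62 and 96.8), Erbin (89.7 and 89.1) and Pik3r1 (89.7 and 87.9) had one in both states, Gab1 in proliferating cells (88.4), the phosphatase gene Ptpn11 in differentiating cells (86.6) and Shc1 and Grb7 in neither. The strongest Sos1 promoter peaks of proliferating and differentiating cells did not overlap. That of proliferating cells had a −log10 q of 1.25 and did not pass a q of at most 0.05. With 1000 bp on both sides of the TSS instead, Adam10, Gab1 and Shc1 had a promoter peak in both states. Ereg and Adam19 then had one in proliferating cells.

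Of 6 negative regulators, Lrig1, which promotes receptor turnover, had a promoter peak at percentiles 71.5 and 56.0, the ubiquitin ligase gene Rnf41 at 37.8 and 54.9 and Socs5 at 90.6 and 97.1. The peak of Cbl was found in proliferating cells (57.7) and that of Errfi1, an inhibitor of the receptor kinases, in differentiating cells (fold enrichment 4.24, percentile 92.1). Socs4 had none. All 10 feedback and target genes had a promoter peak in at least 1 state, 9 in proliferating, 8 in differentiating and 7 in both. Spry1, a Sprouty inhibitor of the Ras route, had a fold enrichment of 5.55 and 4.01 at percentiles 98.5 and 92.0. The MAP kinase phosphatase gene Dusp6 had 2.57 and 3.21 at percentiles 91.5 and 96.7. The promoters of Spry2, Spry4, Spred1, Etv1 and Egr1 were also marked in both states, those of Dusp4 and Etv5 in proliferating cells and Etv4 in differentiating cells. With 1000 bp on both sides of the TSS, Etv4 and Etv5 had a promoter peak in both states and Dusp4 still in proliferating cells alone. With a −log10 q of at least 5 the pathway list kept Spry1 in proliferating cells and Sos1, Socs5 and Dusp6 in differentiating cells. The difference between 3 of 7 members and 24 of 36 pathway genes with a promoter peak in either state was not tested.

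**Figure D5:**
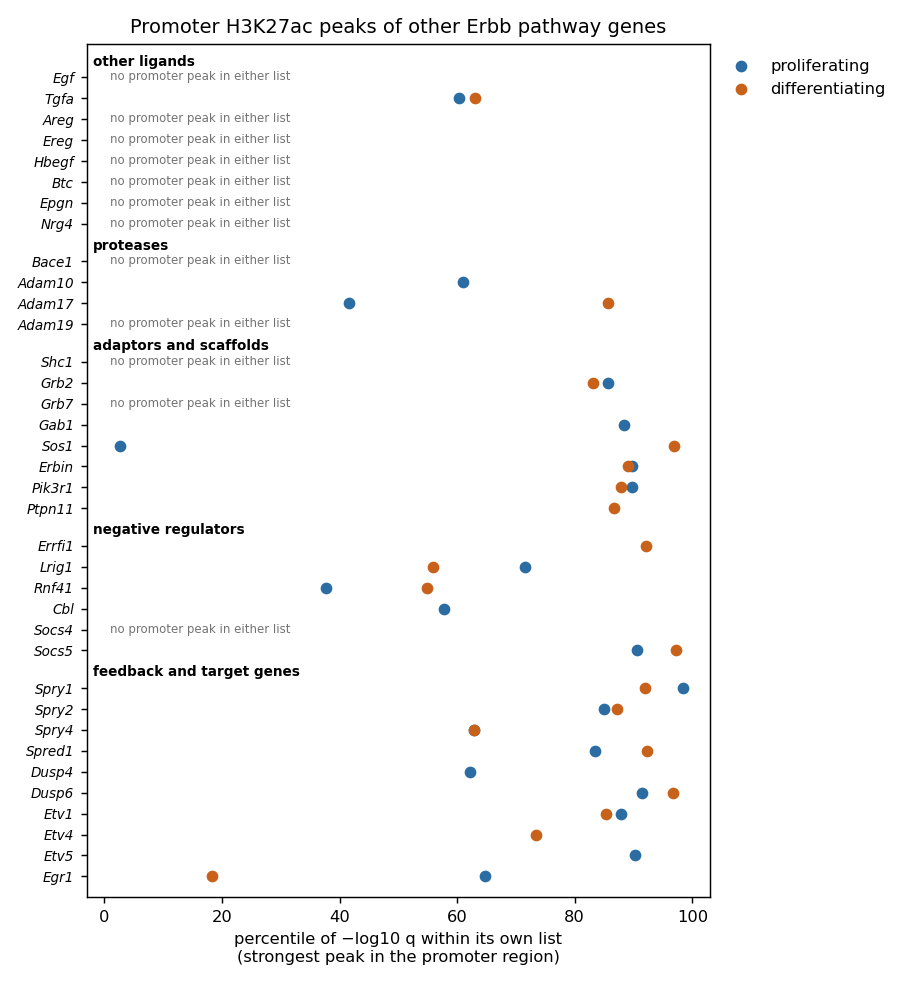
Percentile of −log10 q within its own list (x axis) of the strongest promoter peak of 36 other Erbb pathway genes, by role, in proliferating and differentiating Oli-neu cells; a gene without a point of a color had no promoter peak in that state. The ligands are nearly empty, with Tgfa as the exception, and all 10 feedback and target genes have at least 1 point.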

How the data were processed

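H3K27ac ChIP-seq was available for 1 library of proliferating and 1 of differentiating Oli-neu cells. The authors mapped reads to GRCm38/mm10 with Bowtie2 2.1.0, kept unique reads, removed duplicates, called broad peaks per library with MACS2 2.0.10 and filtered blacklisted regions. No input library is named in the sources used here. The deposited lists have no header. Each deposited peak carries 3 values, which were read, in the output order of the peak caller, as a fold enrichment over background, a −log10 p and a −log10 q. The methods state a q of at most 0.05, while the lists reach down to a −log10 q of 1.00 and 1.01. Values were ranked within their own list.

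Genes, transcripts and exons came from GENCODE M21, on the same build. Any shared base counted as overlap. Exon and intron numbers follow the coding transcript with the longest span. Members and gene lists were chosen with earlier results of these data known. Some cell type markers are not reported here. By rule, all members were named with all their peaks, pathway genes by their promoter peaks and neighbors where a window peak touched their promoter. Psd2 and Gm16076 were named outside it after the values were seen. Shares have 95% exact Clopper-Pearson intervals, which cover counting error only. No test between states was possible with 1 library each. Overlap counting was tested on simulated data and recovered 100% of 1000 planted edges. Calculations used Python 3.11.15, numpy 2.4.6, pandas 2.3.3, scipy 1.17.1 and matplotlib 3.10.9. Alternatives were other windows, promoter definitions, peak thresholds and overlap rules. In the table of RefSeq promoter sequences 4 of the 7 genes matched and that table was not used further.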

Additional observations from a re-analysis of the deposited data

How the results depend on the processing

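The peaks in the windows numbered 16 in proliferating and 25 in differentiating cells. With a −log10 q of at least 5 they numbered 1 (the Erbb3 intron 1 peak) and 0. Under this threshold the proliferating share with a counterpart was 0% and the share touching a coding exon 0%, both of 1 peak, and differentiating shares could not be computed. Promoter peaks were then found for 0 members in proliferating, 0 in differentiating and 0 in either state, and for 1 and 3 of the 36 other pathway genes. With 1000 bp on both sides of the TSS 1 member had a promoter peak in proliferating cells. Counting a peak as coding where its middle lay in a coding exon gave 0% and 8.0%. Fewer peaks pass the stricter rules by construction. The other 37 values moved by at most 1.5 times or, for shares, stayed in their interval. No paired analysis was possible because proliferating and differentiating cells have 1 library each without a pairing label and the numbered siCtr and siPadi2 samples were not analysed here. No library could be left out with 1 per state.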

Other observations

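Some features of the member peaks were not part of the comparisons. The 16 proliferating window peaks had a median GC content of 50.4% and the 25 differentiating ones 45.5%, against 47.1% and 47.4% over the lists, and the median share of marked repeat was 7.39% and 13.7%, against 13.0% and 12.9%. The Erbb4 peak at the TSS in proliferating cells had a ratio of observed to expected CpG of 0.966, higher than 97.8% of its list, and the Nrg2 peak at exon 1 had 0.683, higher than 83.3% of its list. The Erbb3 intron 1 peaks, of the members' peaks the highest in each state by −log10 q but not by fold enrichment in differentiating cells, had 0.163 and 0.154, at percentiles 36.4 and 31.8.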
